A study of Mus musculus with 2 samples.

Results

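The cells described here are skin fibroblasts that were picked by 4 genes, *Pla1a*, *Efhd1*, *Ptx3* and *Anxa3*. A cell was taken as a fibroblast when *Col1a1*, *Col1a2*, *Col3a1* and *Dcn* together held at least 2% of its transcripts (the collagen gate). It was a member when the summed UMIs of the 4 genes came to at least 3 and exceeded each of 3 other marker sums. These were *Tnmd*, *Masp1*, *Slit2* and *C1qtnf3*, then *Cpz*, *Pla2g5*, *Fgfr4* and *Clec11a*, then *Angpt4*, *Myoc*, *C7* and *Adamtsl2*. The rule found 1809 members among 4270 collagen-gated cells and 17492 cells that passed the cell filters, 633 from the wildtype and 1176 from the *Eppk1*-/- mouse. The marker sets had been chosen on these same cells, so that the levels of the 4 genes describe the choice and test nothing.

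Dorsal skin of 1 wildtype C57BL/6J mouse and 1 *Eppk1* knockout (*Eppk1*-/-) mouse backcrossed into C57BL/6J was sampled by punch biopsy and dissociated, and untreated cells were fixed and profiled with 10x Genomics Flex. This assay hybridizes probe pairs to RNA and counts unique molecular identifiers (UMIs), 1 per ligated pair. *Eppk1* encodes epiplakin, a large protein of the plakin family that binds keratin filaments in epithelia. The ages of the mice are not given in the sources used here. Each library is of 1 mouse, so that genotype and mouse cannot be told apart, no difference between them was tested and p-values are left out. All intervals are exact 95% intervals and cover counting error only. The wildtype library held 77638793 UMIs in 9179 cells and the *Eppk1*-/- library 65118304 UMIs in 8811 cells. Members had a median of 8443 UMIs and 3033 genes in the wildtype, and of 7114.5 UMIs and 2937 genes in the *Eppk1*-/- library. Other collagen-gated cells were shallower, with medians of 5221.5 and 5140.0 UMIs. The paper names a pooled wash workflow, and 1211 droplet barcodes were common to both libraries for a reason that was not tested. Of these, 86 wildtype and 165 *Eppk1*-/- members carried a shared barcode, and 7 barcodes were those of a member in both.

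Dermal fibroblasts build and remodel the collagen matrix of the skin, and they differ with depth and with distance from vessels and follicles. A kind that carries *Pi16* and *Dpp4* lies in the adventitia, the fascia and other collagen-rich spaces of many organs, and is regarded as a reserve from which other fibroblasts can arise. Of the 4 genes of the rule, *Pla1a* encodes a secreted phospholipase that releases lysophosphatidylserine, *Efhd1* a calcium-binding protein of mitochondria, *Ptx3* a long pentraxin of innate immunity that is built into the hyaluronan matrix, and *Anxa3* an annexin, a calcium-dependent protein that binds membranes.

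The targeted gene was low in fibroblasts of either genotype. *Eppk1* (chr15:76101481-76120195, minus strand, GRCm38) was measured at 85.8 CPM in wildtype against 13.8 CPM in *Eppk1*-/- members, a log2 ratio of *Eppk1*-/- over wildtype of -2.63 (-2.93 to -2.34). In other collagen-gated cells it was at 196 and 35.9 CPM. In keratin-gated cells, the epithelial cells in which the gene is chiefly active, it was at 4853 and 1229 CPM, a ratio of -1.98. The *Eppk1*-/- library was thus lower in each of these groups of cells, and its keratin-gated cells still gave *Eppk1* UMIs. Whether the probes lie inside the deleted part is not given in the sources used here. Among members, 25.4% and 8.50% had an *Eppk1* UMI, and the member with most of them held 16.9% of the wildtype members' *Eppk1* UMIs. CPM stands for UMIs of a gene per 1000000 UMIs of all genes, summed over the cells named, and log2 ratios were taken after adding 0.5 UMI to each sum.

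Members made up 39.0% (36.6 to 41.4) of the wildtype's collagen-gated cells and 44.4% (42.5 to 46.3) of those of the *Eppk1*-/- library. Of all cells that passed the filters they made up 7.13% (6.61 to 7.69) and 13.6% (12.9 to 14.4). Collagen-gated cells as a whole were 18.3% and 30.7% of all cells, and the dissociated yield of fibroblasts and their number in the skin cannot be told apart. The share also depended on the gate. The 4 gate genes had a median of 4.35% of UMIs in wildtype members and of 3.48% in those of the *Eppk1*-/- library, against 9.55% and 7.90% in the other gated cells. They still held 5% or more of UMIs in 44.4% of wildtype and 15.9% of *Eppk1*-/- members. With a gate of 5% the order of the libraries turned, with members at 28.2% of 998 wildtype and 15.2% of 1231 *Eppk1*-/- cells. With a gate of 1% the shares were 45.4% and 46.3%.

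The 4 genes were not found evenly. *Anxa3* had a UMI in 98.1% of wildtype and 94.7% of *Eppk1*-/- members and was the highest of the 4 in 74.4% and 73.0%. *Ptx3* had a UMI in 67.8% and 77.7%, and led in 19.9% and 23.2%. *Pla1a* was found in 67.0% and 88.9%, and *Efhd1* in 51.8% and 84.4%. All 4 genes were found in 251 wildtype members (39.7%) and 743 *Eppk1*-/- members (63.2%), and only 1 of them in 93 (14.7%) and 56 (4.76%). Free RNA gives some UMIs in any droplet. Keratin-gated cells, which were chosen to hold at most 0.5% of their UMIs in the gate genes, had a *Pla1a* UMI in 0.850% and 1.06% of cells and an *Efhd1* UMI in 0.053% and 0.881%, at median depths of 5387 and 5146 UMIs. After each cell was thinned to 2000 UMIs, 18 wildtype and 46 *Eppk1*-/- members with fewer being left out, *Pla1a* was found in 55.3% (51.3 to 59.3) and 77.3% (74.8 to 79.8) of members and *Efhd1* in 33.3% (29.6 to 37.2) and 70.0% (67.2 to 72.7). The summed UMIs of the 4 genes had a median of 32.0 in wildtype and 52.0 in *Eppk1*-/- members. At the threshold itself stood 12 wildtype and 10 *Eppk1*-/- members with exactly 3 UMIs, which had medians of 2375.5 and 4558.0 UMIs in all, while 18 and 16 gated cells whose sum led with 2 UMIs stayed outside.

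Because the cells are named for *Pla1a* and *Efhd1* first, members were divided by the UMIs of these 2 genes together. This division was chosen after the values were seen. Members with 3 or more such UMIs, called high members below, were 370 of 633 wildtype members (58.5%, 54.5 to 62.3) and 1008 of 1176 *Eppk1*-/- members (85.7%, 83.6 to 87.7). Members with none, called zero members, were 190 (30.0%, 26.5 to 33.8) and 101 (8.59%, 7.05 to 10.3), and 73 and 67 members had 1 or 2. Zero members were picked by *Anxa3* and *Ptx3* alone, so that the name of the cells does not describe them. The division used counts that were not scaled to depth. Median depth was 10096 UMIs in wildtype and 7238 UMIs in *Eppk1*-/- high members, and 6531 and 6757 UMIs in zero members. High members had a median of 3.25% and 3.42% of UMIs in the gate genes, zero members 10.0% and 6.37%. Ratios over all members therefore compare 2 mixtures, and values in high and in zero members are given beside them for many of the lists and genes.

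**Figure D1:**
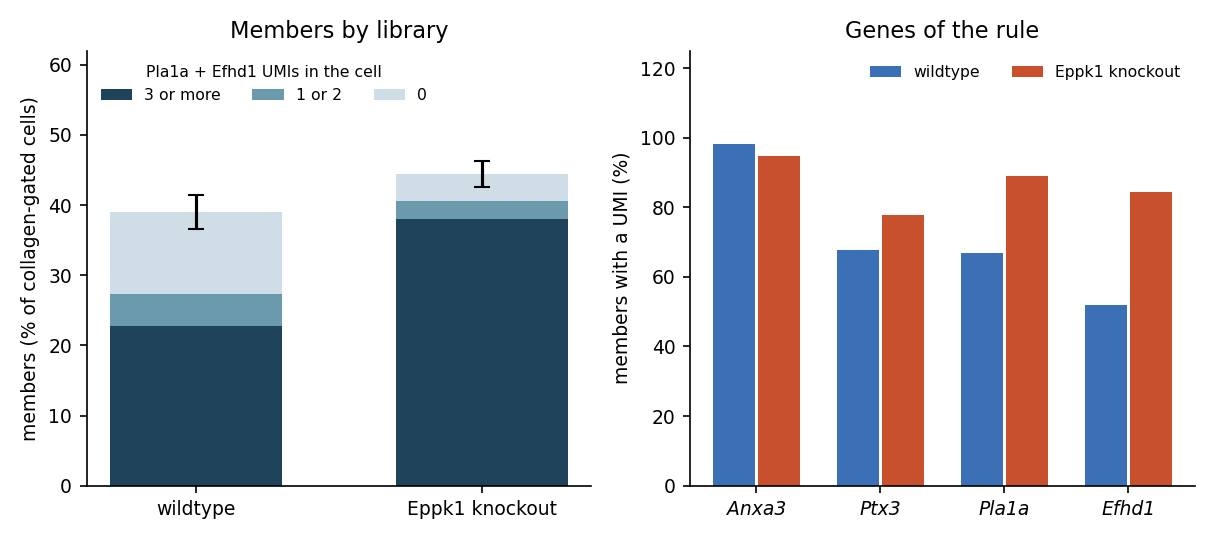
Left, members as a percentage of collagen-gated cells in each library, stacked by the UMIs of *Pla1a* and *Efhd1* in the cell, with the exact 95% counting interval of the total. Right, the percentage of members with a UMI of each gene of the rule. The totals were 39.0% and 44.4%, and zero members took up 30.0% of the wildtype and 8.59% of the *Eppk1*-/- members.

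Genes outside the rule were also compared between members and the other collagen-gated cells. Of 10694 genes with at least 50 UMIs, 1171 (11.0%) were higher by at least 0.5 on the log2 scale in both libraries and 873 (8.16%) were lower, while 95 (0.888%) were past 0.5 in opposite directions. Among the last was *Sfrp2*, picked after its values were seen, at -1.16 and 1.71, wildtype first. Members were picked on counts in these same cells, and the values describe them without a test. A limit was set at detection in 25% of members of both libraries, and of the genes inside it the 15 furthest above the other cells by the lower of both ratios, a choice that fixes their direction, included *Smpd3*, a neutral sphingomyelinase, with log2 ratios of members over other gated cells of 4.67 and 5.20. *Akr1c18*, an enzyme that inactivates progesterone, followed at 4.65 and 5.08, and *Car8*, a protein of the carbonic anhydrase family, at 4.21 and 4.52. *Smpd3* was measured at 234 CPM in wildtype against 749 CPM in *Eppk1*-/- members, and at 9.09 and 20.3 CPM in other gated cells, so that both libraries showed the same order. Signals for other cells were among these genes. *Cxcl13*, a chemokine that draws B cells, stood at 4.70 and 4.12, *Wnt2*, a Wnt ligand, at 3.86 and 3.63 and *Il33*, an alarmin of the interleukin-1 family, at 2.96 and 4.39. *Ebf2*, a transcription factor of mesenchymal progenitors, stood at 2.86 and 3.23, and *Islr2*, a membrane protein with leucine-rich repeats, at 3.47 and 3.09. *Npr1*, a receptor for natriuretic peptides, *Ptgs2*, the inducible cyclooxygenase, *Igfbp4*, an inhibitor of insulin-like growth factors, *Procr*, the receptor of protein C, and *Chrdl1*, an antagonist of BMP, were between 2.53 and 3.01 in each library. *Plac8* at 3.29 and 2.59 and *Plscr1*, a phospholipid scramblase, at 3.48 and 2.58 complete the 15. Genes found in fewer members could lie further out than some of these, such as *Tmem229a* at 2.73 and 6.19 and *Crispld1* at 2.76 and 3.76.

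For genes lower in members the limit was detection in 25% of other gated cells of both libraries, and those furthest below were led by *Aldh3a1*, an aldehyde dehydrogenase, at -3.57 and -4.64, and *Ndufa4l2*, a mitochondrial protein induced in hypoxia, at -2.93 and -4.23. *Ccl19*, the chemokine that guides lymphocytes and dendritic cells by Ccr7, stood at -2.17 and -3.29, *Mfap4*, a microfibril protein, at -2.16 and -4.02 and *Ccn2*, a matricellular protein, at -1.78 and -3.12. *Nr4a2*, *Krt77*, *S100a4* and *Nrp2* were also among them, and *S100a4* had the values -1.77 and -3.25. *Igfbp2*, which fell outside that limit, lay lower still at -4.18 and -6.66. It had UMIs in only 6 wildtype and 5 *Eppk1*-/- members, and 1 cell of each library held 49.3% and 70.8% of them. The 24 genes named inside these limits kept their sign and stayed past 0.5 in both libraries when cells were thinned. The same held when the rule was applied after thinning, when each cell weighed the same, and against the cells of the 3 other marker sets alone. As these genes were picked as the furthest out, staying past 0.5 was nearly fixed and shows no stability.

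**Figure D2:**
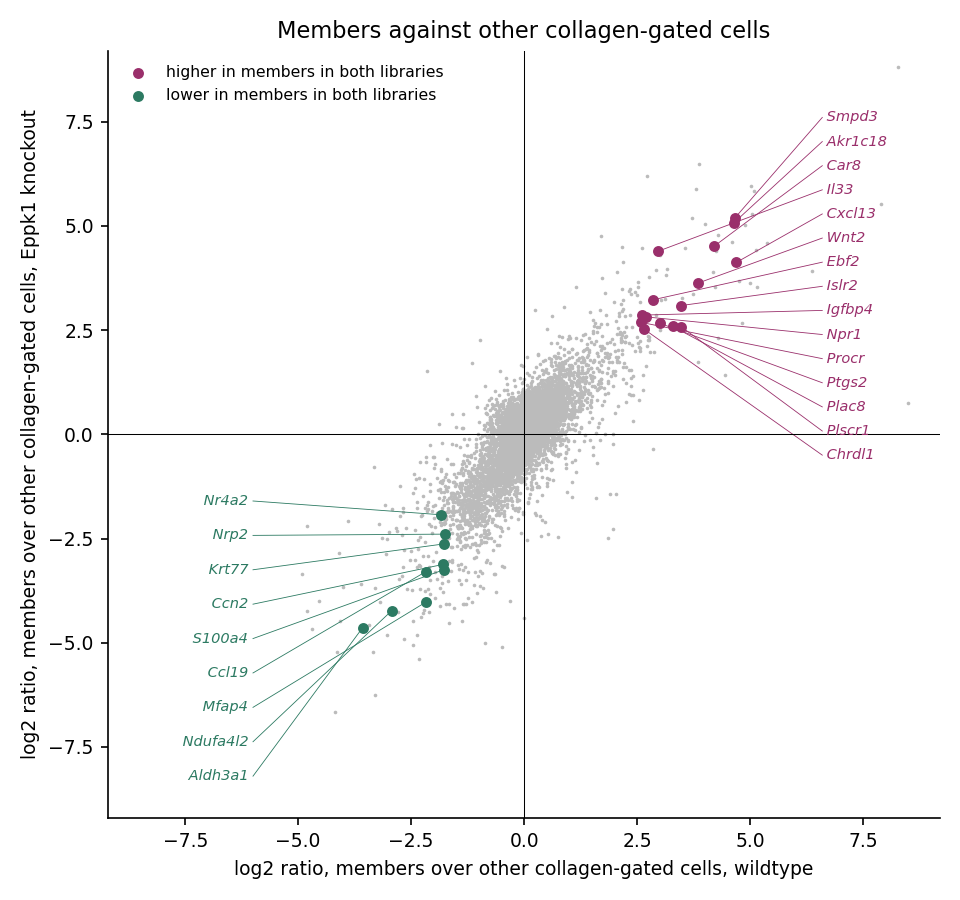
Log2 ratio of members over other collagen-gated cells in the wildtype (horizontal) and the *Eppk1*-/- library (vertical) for genes with at least 50 UMIs in the gated cells of each library, genes of the rule left out. Named points are the 15 highest among genes found in 25% of members of both libraries, led by *Smpd3* at 4.67 and 5.20, and 9 of the 10 lowest among genes found in 25% of other gated cells of both, led by *Aldh3a1* at -3.57 and -4.64.

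Markers of the adventitial kind of fibroblast were high in members. Of 21 genes measured, 14 were higher by 0.5 than in other gated cells in both libraries and 0 were lower, where 11.0% and 8.16% of all genes were, with medians of 0.86 and 1.87 against medians of 0.08 and 0.18 over all genes. *Pi16*, a secreted protein of the CAP family, stood at 0.41 and 1.31. *Dpp4*, a membrane peptidase, stood at 1.68 and 2.13 and *Ackr3*, a scavenging chemokine receptor, at 1.60 and 2.24, both of which were picked after their values were seen. The sum of the list in a single cell had a median of 20649 CPM in wildtype and 28587 CPM in *Eppk1*-/- high members, of 15561 and 8232 CPM in zero members, and of 13389 and 11937 CPM in other gated cells. High members stood above both in either mouse. The same shares of all genes, 11.0% higher and 8.16% lower, stand beside the lists that follow. Papillary dermis markers went the other way, with 8 of 9 lower in both libraries and medians of -1.07 and -1.87. That list also held *Cpz* and *Fgfr4*, genes of the rule that were left out of the 9. Cells in which the sum of *Cpz*, *Pla2g5*, *Fgfr4* and *Clec11a* was higher could not be members. The direction of this list was thus partly set by the rule and tests nothing. Of 27 interferon-stimulated genes 17 were higher than in other gated cells in both libraries and 0 lower. Of 25 chemokines and cytokines 10 were higher and 3 lower, and of 37 fibroblast transcription factors 13 were higher and 6 lower. *Tbx5*, a T-box factor of the forelimb and heart fields, was among the 13, at 4.81 and 5.01, with a UMI in 4.11% and 18.4% of members.

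High and zero members also differed from each other in the genes given here, for which no count over all genes is given. *Il33* was measured at 248 CPM in high and 9.47 CPM in zero members of the wildtype, and at 628 and 31.3 CPM in the *Eppk1*-/- library. *Igfbp4* was at 1810.2 and 35.0 CPM in the wildtype and at 2240.4 and 713 CPM in the *Eppk1*-/- library. Both genes were higher in high members of either mouse. *Cilp*, a secreted cartilage and matrix protein, had the opposite order, with 603 CPM in high and 3434 CPM in zero members of the wildtype, and 61.5 and 502 CPM in the *Eppk1*-/- library. *Cyp2f2*, a cytochrome P450, was at 193 and 1153 CPM in the wildtype and at 16.1 and 259 CPM in the *Eppk1*-/- library. Zero members carried more of both genes than high members in either mouse. Other gated cells had 2393 CPM of *Cilp* and 1138 CPM of *Cyp2f2* in the wildtype, the former below and the latter close to zero members, but 1601 and 586 CPM in the *Eppk1*-/- library, both above zero members.

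**Figure D3:**
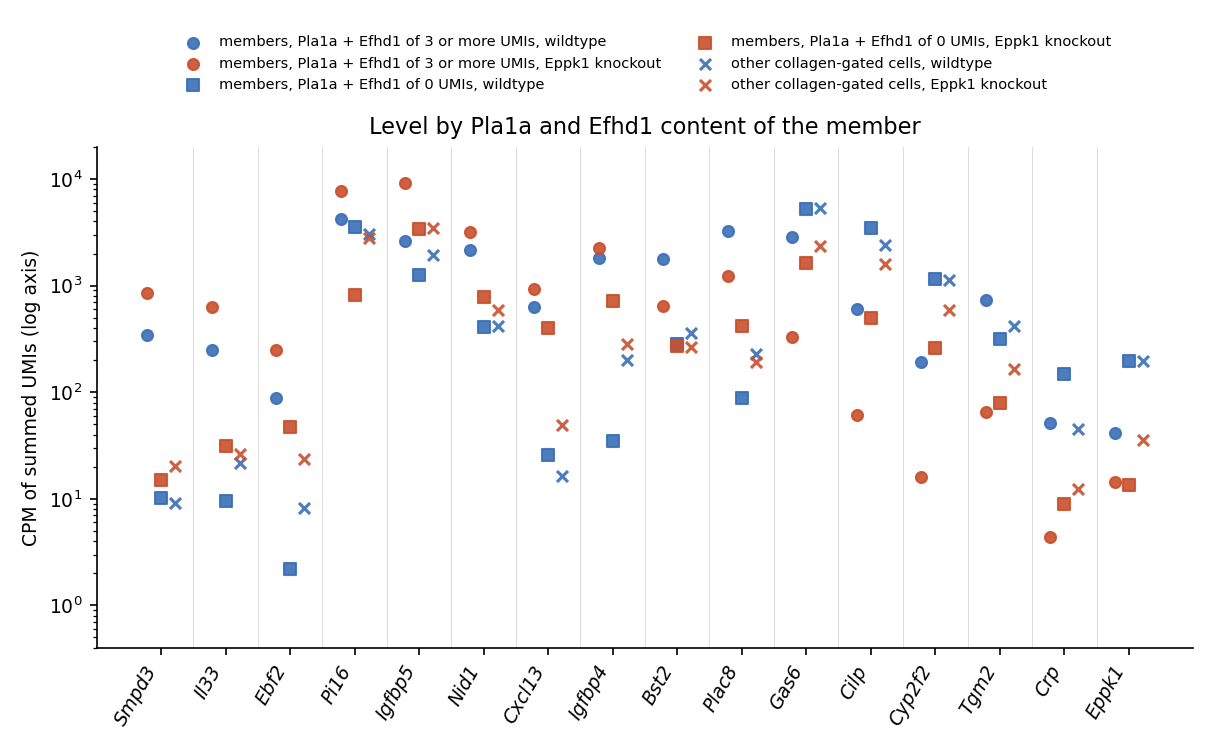
Level of 16 genes in CPM (log axis) in high members (circles), zero members (squares) and other collagen-gated cells (crosses) of the wildtype (blue) and the *Eppk1*-/- library (orange), 1 point per library. Within each library the genes from *Smpd3* to *Plac8* were highest in high members, and *Cilp* and *Cyp2f2* were lowest there. The 16 genes were picked by hand from those named in the text. No share over all genes is given for these orders, which describe the genes picked.

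Between the genotypes, members differed by 0.5 or more on the log2 scale, the size rule used throughout, in genes of both directions. Of 5064 genes that 25% or more of the members of a library carried, 471 (9.30%) were higher by at least 0.5 in *Eppk1*-/- members and 405 (8.00%) were lower. Of 10714 genes with at least 50 UMIs, 1456 (13.6%) were higher and 1233 (11.5%) lower. The median of all ratios was 0.04 over the 5064 genes. In high members alone, 1333 of 10230 genes (13.0%) were higher and 1083 (10.6%) lower. Of the 471 higher genes 353 (74.9%) were past 0.5 in high members too, and of the 405 lower genes 356 (87.9%), where 420 (8.29%) and 501 (9.89%) of the 5064 genes were. High members make up most of the members, so that these shares compare a part with its whole. In zero members 195 (41.4%) of the higher and 135 (33.3%) of the lower genes passed 0.5 in the same direction, where 808 and 505 of the 5064 genes did so in these small groups of cells. In other gated cells only 90 (19.1%) of the former and 77 (19.0%) of the latter passed 0.5 in the same direction, where 152 and 121 of the 5064 genes did so in all. Both comparisons rest on the same 2 mice, and the difference between them was not tested.

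Of the 5064 genes, those lowest in *Eppk1*-/- members were led by *Crp*, which encodes C-reactive protein, another pentraxin. It was measured at 88.3 CPM in wildtype against 4.73 CPM in *Eppk1*-/- members, a log2 ratio of -4.21 (-4.72 to -3.76), and 29.4% and 2.13% of members had a UMI. The ratio was -3.55 in high members, -3.94 in zero members and -1.87 in other gated cells. *Gas6*, the ligand of the receptors Tyro3, Axl and Mertk, was at 3552 CPM in wildtype against 514 CPM in *Eppk1*-/- members, a ratio of -2.79 (-2.84 to -2.74). It was lower in high members (-3.12), in zero members (-1.67) and in other gated cells (-1.20). *Tgm2*, a transglutaminase that crosslinks matrix proteins, was at 598 CPM in wildtype against 79.8 CPM in *Eppk1*-/- members, a ratio of -2.91 (-3.03 to -2.79), with -3.49 in high and -1.99 in zero members. These genes were lower in *Eppk1*-/- cells of each kind. *Cyp2f2* (-3.83, -4.00 to -3.66), *Cilp* (-3.30, -3.38 to -3.22), *Cyp26b1*, which degrades retinoic acid (-2.98, -3.16 to -2.81), and *Serpina3n*, a protease inhibitor (-2.42, -2.54 to -2.30), were higher in zero than in high members of the wildtype. Their ratios within high members were -3.58, -3.29, -2.27 and -1.54, and in other gated cells -0.96, -0.58, -0.56 and -0.21. *Col12a1*, a collagen that sits on fibrils, stood at -2.98 (-3.30 to -2.67). *Lor*, the loricrin of the cornified envelope, also appeared among the 10 at -2.98 (-3.17 to -2.81), but 1398 of its 1703 UMIs in wildtype members came from 1 cell. Without the top cell of each library its ratio was -0.53. *Eppk1* itself completes the 10, with -1.55 in high and -3.81 in zero members.

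Of the same 5064 genes the highest in *Eppk1*-/- members was *Ces1d*, a carboxylesterase that cleaves lipid esters, at 6.65 CPM in wildtype against 59.1 CPM in *Eppk1*-/- members, a ratio of 3.14 (2.69 to 3.65). A UMI was found in 4.90% and 28.2% of members, and the ratio was 2.80 in high members but -0.10 in other gated cells. *Igfbp5*, a secreted protein that binds insulin-like growth factors, was the most abundant of those named here, at 2164 CPM in wildtype against 8449 CPM in *Eppk1*-/- members, a ratio of 1.97 (1.94 to 1.99). It was higher in high members (1.81), zero members (1.44) and other gated cells (0.86). *Wnt5a*, a ligand of noncanonical Wnt signalling, was at 20.5 CPM in wildtype against 107 CPM in *Eppk1*-/- members, a ratio of 2.38 (2.12 to 2.67), with 2.26 in high and 1.48 in zero members and 0.31 in other gated cells. *Krt19*, a keratin, stood at 2.33 (2.07 to 2.60). In other gated cells *Krt19* had 4.88 and 4.90 CPM. *Tmem229a* (2.45, 2.10 to 2.84), *Crispld1* (2.41, 2.15 to 2.69), *Atp1b1*, a subunit of the sodium pump (2.20, 1.87 to 2.56), and *Ebf2* (1.89, 1.73 to 2.06) were also among the 10 highest. *Nnt*, the nicotinamide nucleotide transhydrogenase, was at 19.8 CPM in wildtype against 74.9 CPM in *Eppk1*-/- members, a ratio of 1.92 (1.64 to 2.22), and it was similarly higher in other gated cells (1.64). C57BL/6J mice are known to carry a shortened *Nnt* allele, and the part of strain background in these ratios was not tested. In high members each gene named here kept a ratio between 1.49 and 2.80, while zero members held 101 *Eppk1*-/- cells and gave -3.22 for *Tmem229a*.

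**Figure D4:**
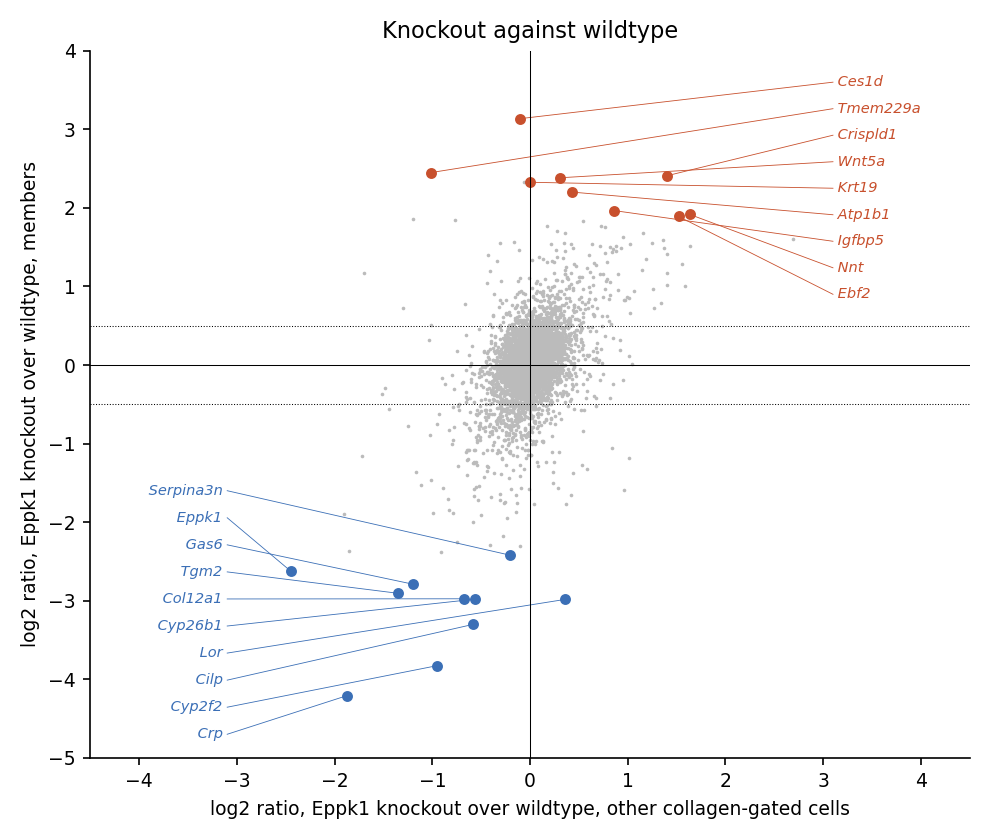
Log2 ratio of *Eppk1*-/- over wildtype in other collagen-gated cells (horizontal) and in members (vertical) for 5064 genes, with dotted lines at the size rule of 0.5 in either direction. Of the 10 highest 9 are named, with the 10 lowest in members, and *Nnt*, *Ebf2* and *Crispld1* lay above 1 on both axes while *Ces1d* and *Krt19* lay near 0 on the horizontal one.

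The adventitial markers were higher in *Eppk1*-/- members as a list. Of 21 genes 13 were higher by 0.5 and 1 was lower, where 13.6% of all genes with 50 UMIs were higher and 11.5% lower. The median was 0.85, against 0.02 in other gated cells and 0.78 in high members, where 16 were higher and 2 lower. *Pi16*, the most abundant of them, was at 4081 CPM in wildtype against 6932 CPM in *Eppk1*-/- members, a ratio of 0.76 (0.74 to 0.79). It was 0.86 in high and -2.10 in zero members, and -0.081 over members with a gate of 5%. *Il33* had the largest ratio of the list, 1.70 (1.60 to 1.80), from 171 to 557 CPM, with 1.34 in high and 1.70 in zero members. *Ly6a*, the gene of Sca-1, was the exception, at 4949 CPM in wildtype against 3371 CPM in *Eppk1*-/- members, a ratio of -0.55 (-0.58 to -0.53), with -0.73 in high and -0.40 in zero members. In zero members the median of the list was -0.40, so that high and zero members had medians of opposite sign.

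Interferon-stimulated genes had the opposite sign. They encode proteins that block viral replication, present peptides and carry the signal of interferon receptors, and many share a promoter element bound by the ISGF3 and IRF factors. Of 27 genes 0 were higher and 18 were lower by 0.5 in *Eppk1*-/- members, with a median of -0.74, where 11.5% of all genes with 50 UMIs were lower. In high members 20 were lower and the median was -0.99, in zero members it was 0.28 and in other gated cells -0.24. The sum of the list over high members was 7773 CPM in the wildtype against 3921 CPM in the *Eppk1*-/- library, and in other gated cells 3597 and 3439 CPM. High members of the wildtype thus held the highest sum of these groups. Over single cells, the list had a 10th percentile of 2604, a median of 6619.9 and a 90th percentile of 12989 CPM per cell, against 1809, 3359 and 6077 CPM in *Eppk1*-/- high members. *Bst2*, the tetherin that holds virus particles to the cell, was the most abundant, at 1307 CPM in wildtype against 618 CPM in *Eppk1*-/- members, a ratio of -1.08 (-1.13 to -1.03), with -1.45 in high and -0.06 in zero members. *B2m*, the light chain of class I molecules, was at 734 CPM in wildtype against 625 CPM in *Eppk1*-/- members, a ratio of -0.23 (-0.29 to -0.18), with -0.37 in high and -0.22 in zero members. *Ifit3b*, of the family that binds viral RNA, had the lowest ratio, -2.18 (-2.64 to -1.76), at 31.1 CPM in wildtype against 6.80 CPM in *Eppk1*-/- members. It stood at -2.85 in high members, and zero members had only 6 and 3 UMIs of it. Its near-identical neighbour *Ifit3*, named for that reason, was at -1.99, and signal of these copies may be split between them. *Irf1*, a factor also induced by interferon gamma, had the highest ratio, 0.13 (0.06 to 0.19), at 573 CPM in wildtype against 626 CPM in *Eppk1*-/- members, with 0.16 in high and 0.55 in zero members. With a gate of 5% the list's median was -0.028.

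**Figure D5:**
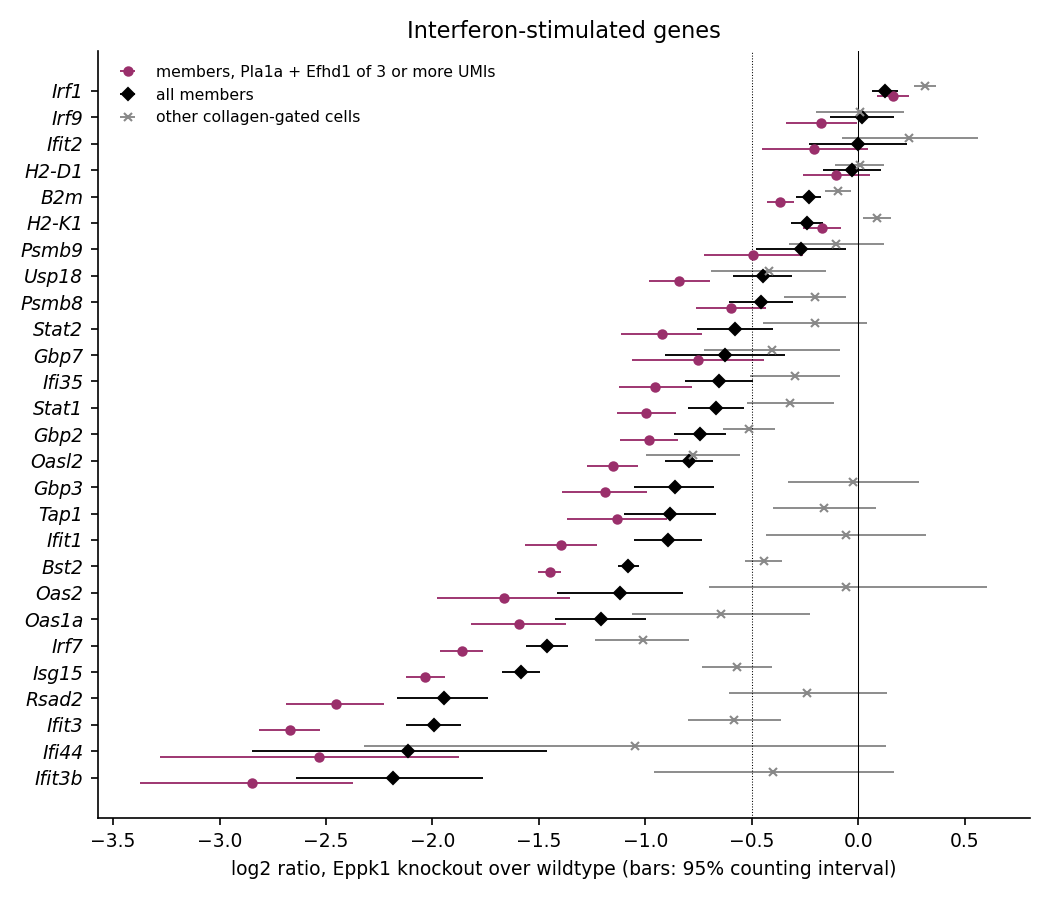
Log2 ratio of *Eppk1*-/- over wildtype for 27 interferon-stimulated genes in all members (black diamonds), high members (purple circles) and other collagen-gated cells (grey crosses), with exact 95% counting intervals. In members 18 lay at or under the dotted line at -0.5, and *Ifit3b* had the lowest ratio at -2.18.

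The promoters of the most abundant, the lowest and the highest gene of this list are shown because they differ in that element. Sequences are those of RefSeq on GRCm38.p6, from 250 bases before to 50 after the start, 5′ to 3′ on the strand of the gene. Capitals mark matches to GAAANNGAAA or to its reverse complement TTTCNNTTTC, with N for any base, and overlapping matches run into each other.
*Bst2* (chr8:71537423-71537722, minus strand): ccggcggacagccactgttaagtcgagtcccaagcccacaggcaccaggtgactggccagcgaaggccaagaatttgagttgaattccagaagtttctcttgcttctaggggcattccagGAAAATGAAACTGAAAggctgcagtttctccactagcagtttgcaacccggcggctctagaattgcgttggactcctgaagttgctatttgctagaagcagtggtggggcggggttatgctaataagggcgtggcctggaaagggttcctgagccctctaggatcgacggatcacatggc
*Ifit3b* (chr19:34607707-34608006, plus strand): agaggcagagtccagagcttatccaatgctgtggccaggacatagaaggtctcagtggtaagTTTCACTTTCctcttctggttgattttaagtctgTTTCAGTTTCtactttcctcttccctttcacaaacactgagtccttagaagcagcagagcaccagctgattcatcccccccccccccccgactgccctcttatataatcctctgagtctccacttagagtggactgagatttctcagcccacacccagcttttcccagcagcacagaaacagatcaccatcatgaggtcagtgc
*Irf1* (chr11:53769764-53770063, plus strand): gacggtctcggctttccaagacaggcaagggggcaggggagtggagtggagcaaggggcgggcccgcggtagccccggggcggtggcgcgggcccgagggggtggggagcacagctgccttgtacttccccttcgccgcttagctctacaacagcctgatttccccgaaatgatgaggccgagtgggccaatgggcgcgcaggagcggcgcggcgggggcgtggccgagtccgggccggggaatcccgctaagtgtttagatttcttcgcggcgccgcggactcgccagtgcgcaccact
*Bst2* and *Ifit3b* had 2 matches each, and *Irf1* had 0 here and 0 at its other listed start. A match was found in 1079 of 27025 genes with a promoter (3.99%) and in 318 of the 8515 of them with 50 UMIs in members (3.73%). Of the 27 genes of the list 24 had a promoter in the table. A match was found in 11 of the 16 that were lower by 0.5 and in 1 of the 8 that were not, which was *B2m*. The letters describe these windows only.

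Genes near the 4 of the rule in function were counted in the same way, and the counts are to be read beside the 13.6% of all genes with 50 UMIs that were higher and the 11.5% that were lower. Among phospholipases and genes of lysophospholipid signalling, 3 of 15 were higher and 3 lower, with medians of -0.29 in high and 0.39 in zero members. *Plpp3*, which breaks down lysophosphatidic acid at the cell surface, was at 2501 CPM in wildtype against 3568 CPM in *Eppk1*-/- members, a ratio of 0.51 (0.48 to 0.54), with 0.43 in high and -0.72 in zero members. *Lpar1*, a receptor for that lipid, stood at -0.39 (-0.51 to -0.28). *Enpp2*, the autotaxin that makes it, stood at 1.12 (0.78 to 1.49), and *Sphk1*, which makes sphingosine 1-phosphate, at -1.51 (-1.81 to -1.21). The receptors of lysophosphatidylserine in the list were hardly measured, with *Gpr34* at 0.665 and 0.576 CPM, *P2ry10* at 2.66 and 1.15 CPM and *Gpr174* at 0.166 and 0 CPM. Of 13 annexins and S100 partners 0 were higher and 3 lower, with medians of -0.06 in high and -0.0038 in zero members. The 3 lower genes were *Anxa5* (-0.54, -0.60 to -0.48), *Anxa8* (-0.76, -1.01 to -0.51) and *S100a4* (-2.38, -2.52 to -2.25), the last of which was at 340.4 CPM in wildtype against 65.1 CPM in *Eppk1*-/- members, with -1.69 in high and -2.42 in zero members. *Anxa1*, a mediator that damps inflammation, was at 0.35 (0.32 to 0.39), and was above the other gated cells in both libraries (0.60 and 1.32).

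Of the hyaluronan genes and partners of Ptx3, 3 of 9 were higher and 2 lower, with medians of 0.12 in high and 0.40 in zero members. *Tnfaip6*, which moves heavy chains onto hyaluronan and binds Ptx3, gave nearly equal levels, at 505 CPM in wildtype against 506 CPM in *Eppk1*-/- members, a ratio of 0.00 (-0.06 to 0.07). *Itih5*, a heavy chain of the inter-alpha-trypsin inhibitor family, stood at 0.67 (0.61 to 0.72) over all members and at 0.27 in high members. The synthases *Has1* (-0.18, -0.24 to -0.11) and *Has2* (0.17, 0.09 to 0.26) stayed within 0.5, the receptor *Cd44* was lower (-0.74, -0.84 to -0.64, but 0.19 with a gate of 5%) and *Fgf2*, a growth factor that Ptx3 binds, was higher (1.47, 1.27 to 1.68), from 40.6 to 112 CPM. In zero members both had the other sign, *Cd44* at 0.54 and *Fgf2* at -0.24, against -0.90 and 1.38 in high members. Of 15 calcium-binding and mitochondrial calcium genes 1 was higher and 1 lower, which were *Micu3*, a regulator of the calcium uniporter (0.54, 0.20 to 0.89), and *Slc8b1*, the mitochondrial sodium-calcium exchanger (-0.59, -0.77 to -0.41). *Mcu*, the pore of the uniporter, stood at 0.26 (0.08 to 0.43).

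Matrix genes went in both directions, in lists whose counts lie beside the same 13.6% and 11.5% over all genes. Of 11 fibrillar and associated collagens outside the gate 2 were higher and 3 lower, with *Col14a1* highest at 1.68 (1.62 to 1.74) and *Col12a1* lowest. Of 14 basement membrane genes 4 were higher and 2 lower. *Nid1*, the linker of laminin and collagen IV, was at 1622 CPM in wildtype against 2899.7 CPM in *Eppk1*-/- members, a ratio of 0.84 (0.80 to 0.87), and it was also well above the other gated cells in both libraries (1.95 and 2.29). Its ratio was 0.54 in high and 0.91 in zero members. *Col15a1* was the lowest of that list at -1.15 (-1.25 to -1.04), but at 0.18 with a gate of 5% and at 0.74 in zero members. Of 22 collagen processing enzymes 0 were higher and 5 lower, and *Lox*, which crosslinks collagen and elastin, was at 644 CPM in wildtype against 175 CPM in *Eppk1*-/- members, a ratio of -1.88 (-1.96 to -1.79), with -2.32 in high and -0.40 in zero members. Of 17 elastic fibre genes 5 were higher and 2 lower, with *Mfap5* at 1.10 (1.05 to 1.16) and *Mfap4* at -1.57 (-1.72 to -1.41). Among 19 proteoglycans and matrix glycoproteins 2 were higher and 7 lower, with *Fn1*, fibronectin, at 1.23 (1.21 to 1.26) and *Dpt*, dermatopontin, at 0.76 (0.74 to 0.77). *Fn1* stood at 1.27 in high and -0.51 in zero members, and *Dpt* at 0.70 in high and 0.36 in zero members. *Fmod*, fibromodulin, was lowest at -4.74 (-5.83 to -3.94), but it had UMIs in only 11 wildtype and 7 *Eppk1*-/- members, and 6 cells held 93.0% of the wildtype UMIs. Of 24 proteases and inhibitors 6 were higher and 5 lower, among them *Timp2* at 0.65 (0.63 to 0.68) and *Timp3* at -0.57 (-0.60 to -0.54). Medians of these 6 matrix lists lay between -0.18 and 0.22 in high members and between -0.34 and 0.65 in zero members.

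Among secreted signals, 4 of 25 chemokines and cytokines were higher and 12 lower, against 13.6% and 11.5% of all genes with 50 UMIs. High and zero members had opposite signs here. The median of the list was -0.67 in high and 0.77 in zero members, and its sum went from 11161 CPM in wildtype to 7508 CPM in *Eppk1*-/- high members but from 6916 to 12291 CPM in zero members. In zero members, macrophage and dendritic cell markers also went from 519 to 2070 CPM, and lymphocyte and mast cell markers from 10.2 to 52.1 CPM. The part of such cells in the chemokine values was not tested. *Cxcl1*, which draws neutrophils, was at 2127 CPM in wildtype against 1475 CPM in *Eppk1*-/- members, a ratio of -0.53 (-0.56 to -0.49), with -1.05 in high, 2.03 in zero members and 0.67 in other gated cells, and 0.61 over members with a gate of 5%. *Cxcl12* stood at -0.65 (-0.70 to -0.60), with -0.63 in high and 0.56 in zero members. *Csf2*, at -1.70, rested on few cells, with UMIs in 19 wildtype and 13 *Eppk1*-/- members, and was at 0.90 with a gate of 5%. Of 17 complement genes 2 were higher and 5 lower, and *C3*, the central component, was at 3223 CPM in wildtype against 7997 CPM in *Eppk1*-/- members, a ratio of 1.31 (1.29 to 1.33), with 1.08 in high and 1.56 in zero members. Medians of the complement list were -0.04 in high and 0.80 in zero members. Of 28 Wnt pathway genes 6 were higher and 2 lower, with *Sfrp2* at 1.17 (1.10 to 1.24) in members (1.90 in high and -1.48 in zero members) and -1.70 in other gated cells, and *Sfrp1* at -1.38 (-1.53 to -1.23). Of 33 TGF-beta and BMP genes 6 were higher and 9 lower, and of 26 genes of PDGF, FGF, IGF and HGF signalling 10 were higher and 8 lower. *Gdf10*, a ligand of the BMP family, was at 2.16 CPM in wildtype against 16.6 CPM in *Eppk1*-/- members, a ratio of 2.89 (2.12 to 3.88), with 1.95 in high and 4.36 in zero members, where the wildtype had 7 and 6 UMIs. *Grem1*, an antagonist of BMP, stood at -3.18 (-4.07 to -2.45), with UMIs in 37 wildtype and 7 *Eppk1*-/- members. Of 37 transcription factors 15 were higher and 3 lower, but in high members 8 of 33 were higher and 5 lower, and the medians were -0.04 in high and 0.59 in zero members. Among them were *Tbx5* at 2.18 (1.72 to 2.70) and *Foxp2* at -1.28 (-1.79 to -0.79). With a gate of 5% *Foxp2* was at 0.024.

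Lists that follow hormone, feeding or the time of day had more genes lower than higher in *Eppk1*-/- members, where 11.5% of all genes with 50 UMIs were lower and 13.6% higher. Of 24 cholesterol synthesis genes 0 were higher and 15 lower, with a median of -0.66 in members, -0.56 in high members, -0.21 in zero members and -0.46 in other gated cells. *Hmgcs1*, an early enzyme of the pathway, was at 194 CPM in wildtype against 79.9 CPM in *Eppk1*-/- members, a ratio of -1.28 (-1.41 to -1.14), with -1.32 in high and -0.59 in zero members. Of 19 clock genes 0 were higher and 7 lower, with medians of -0.36 in members, -0.23 in high and -0.15 in zero members and -0.37 in other gated cells, and *Nr1d1*, a repressor of the clock, was at -1.89 (-2.03 to -1.75), with -1.78 in high and -1.70 in zero members. Of 29 glucocorticoid-induced genes 1 was higher and 14 lower, with a median of -0.31 in members (-0.33 in high and -0.12 in zero members) and *Tsc22d3* at -1.56 (-1.69 to -1.44). The time of day at which the mice were killed is not given in the sources used here, and its part in these values was not tested. Early genes that dissociation induces were 1 higher and 5 lower of 32, with a median of -0.13.

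The other lists of fibroblast state have the same 13.6% higher and 11.5% lower over all genes beside them. Papillary dermis markers were higher in 0 and lower in 5 of 9 genes, with a median of -1.06 in members and 0.17 over the 5 genes measured in high members. Reticular and lower dermis markers were higher in 1 and lower in 7 of 15, with medians of -0.46 in members, -0.63 in high and 0.39 in zero members. Among the lower ones, *Gpx3* was at 16199 CPM in wildtype against 6335 CPM in *Eppk1*-/- members. Its ratio was -1.35 (-1.37 to -1.34), with -1.35 in high and -1.23 in zero members. *Mgp*, the matrix Gla protein that hinders calcification, was the higher one, at 47.6 CPM in wildtype against 192 CPM in *Eppk1*-/- members, a ratio of 2.01 (1.83 to 2.20), with 1.38 in high and 3.30 in zero members. Its UMIs lay in 38 wildtype and 90 *Eppk1*-/- members, and 6 cells held 62.2% and 47.7% of them. Of 8 pan-fibroblast markers 1 was lower, *Twist2*, at -1.06 (-1.21 to -0.92), and the most abundant, *Mmp2*, was at 0.28 (0.25 to 0.31). Dermal papilla and sheath markers were higher in 2 of 6, NF-kB and acute-phase genes lower in 3 of 19, and YAP and TEAD targets higher in 3 and lower in 3 of 20. *Ccn2*, one of these targets, stood at -1.53 (-1.71 to -1.36). NF-kB and acute-phase genes had medians of -0.38 in high and 0.62 in zero members. Of 12 cell cycle genes 7 were lower, with medians of -0.73 in high and 0.67 in zero members and *Pcna*, the most abundant, at 171 and 134 CPM. Of 7 plakins 3 were lower, *Eppk1* among them, and *Plec*, plectin, stood at -0.40 (-0.50 to -0.31). In high members 1 of 7 plakins was lower, and the median of the list was -0.41 in members and -0.18 in high and -0.21 in zero members. Keratinocyte markers, given next, were also lower in fewer genes in high members, and their part in the plakin values was not tested.

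Markers of other cell types were summed in the members. Members in which such markers held at least 1% of UMIs numbered 32 of 633 in the wildtype (5.06%) and 37 of 1176 in the *Eppk1*-/- library (3.15%). This count used the keratinocyte, endothelial, pericyte and smooth muscle, and macrophage and dendritic cell lists. It also used the lymphocyte and mast cell and the Schwann cell and melanocyte lists, but not the skeletal muscle or adipogenic ones. Counts of lower genes stand beside the 11.5% of all genes with 50 UMIs that were lower. Keratinocyte markers summed to 1597 CPM in wildtype against 1032 CPM in *Eppk1*-/- members, with *Krt10* the most abundant and 9 of 14 lower by 0.5, and to 3819 and 2945 CPM in other gated cells. In high members the sums were 995 and 981 CPM, with 2 higher and 1 lower and a median of -0.17, and in zero members 3446 and 2008 CPM. Macrophage and dendritic cell markers summed to 674 and 467 CPM, led by *Cd74*, with 6 of 10 lower. They went from 424 to 341 CPM in high members but from 519 to 2070.3 CPM in zero members, with medians of -0.35 in high and 2.09 in zero members. The median over all members was -0.55, but 0.10 without the cells that held 1% or more of markers of other cell types and 0.12 when the strata of *Pla1a* and *Efhd1* UMIs had their wildtype weights. Skeletal muscle markers summed to 151 and 18.8 CPM, led by *Tnnt3*, with 7 of 7 lower, and 521 wildtype and 1044 *Eppk1*-/- members had no UMI of that list. In the wildtype 5% of the members held 89.6% of the list's CPM per cell, summed with each cell weighing the same. There *Ckm* was found in 5 cells, and 1 cell held 41.5% of the UMIs of *Tnnt3* and 47.0% of those of *Acta1*. The median of the list was -4.60 in high members, 0.46 in zero members and -2.59 in other gated cells. In other gated cells its sum went from 88.2 to 21.7 CPM. Endothelial markers summed to 116 and 102 CPM, led by *Kdr*, and pericyte and smooth muscle markers to 41.4 and 27.1 CPM, led by *Abcc9*. The latter went from 64.1 to 92.3 CPM in zero members and from 68.3 to 91.7 CPM in other gated cells. Lymphocyte and mast cell markers summed to 43.7 and 16.5 CPM, led by *Kit*, but went from 10.2 to 52.1 CPM in zero members and from 54.4 to 71.8 CPM in other gated cells. Schwann cell and melanocyte markers summed to 70.7 and 112 CPM, led by *Mbp*. Adipogenic markers were lower in 6 of 9 genes and higher in 1, and *Car3* had 55.7 and 0.692 CPM, with 39.7% of its wildtype UMIs in 1 cell. In high members 3 of 6 adipogenic markers were lower. The median of that list was -1.31 in members, -0.81 in high and -0.14 in zero members, and -0.23 over members with a gate of 1%. The part of such RNA in the ratios above was not tested gene by gene. *Lep*, *Emcn*, *Tie1*, *Higd1b* and *Sox10* had no UMI in members of either library. Cells that held 1% or more of the markers in that count, which left out skeletal muscle and adipogenic markers, were also removed. Without them the share of members was 41.0% and 45.5%, 457 genes were higher and 408 lower, and *Eppk1* stood at -1.96.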

How the data were processed

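Cells of 2 libraries, 1 mouse of each genotype, were read from the filtered matrices of unique molecular identifier (UMI) counts that the authors deposited, made with Cell Ranger 8.0.1 on GRCm38 (mm10) per the submitters' processing notes. The cell filters asked for 200 to 45000 UMIs, for 100 to 7500 genes and for no more than 10% of UMIs from the 13 mitochondrial genes, which were dropped after that. Doublets were not called. UMIs were summed over cells of a library and given per 1000000 (CPM). Log2 ratios had 0.5 UMI added to each sum, with exact conditional intervals for ratios and Clopper-Pearson intervals for shares. With 1 sample per genotype no test was made. Genes counted as measured had a UMI in 25% of members of a library, or at least 50 UMIs in members for lists and promoters. Keratin-gated cells had at least 2% of UMIs in keratins and at most 0.5% in the gate genes. TMM factors came from edgeR 4.0.16 in R 4.3.3, the rest from Python 3.11.15 with numpy 2.4.6, pandas 2.3.3 and scipy 1.17.1, tested on simulated data. The members, the 38 gene lists and the rule for named genes were chosen with earlier results of these data known. That rule took *Eppk1*, the 10 highest and lowest ratios between genotypes, the 15 genes furthest above and 10 furthest below other gated cells, the 2 most abundant and the most changed genes of each list, and the lists near the 4 genes in function. Some genes that this rule took are not reported here.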

Additional observations from a re-analysis of the deposited data

Results flagged for a closer look

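*Lor* had opposite directions in the 2 kinds of fibroblast compared. Its log2 ratio of *Eppk1*-/- over wildtype was -2.98 in members and 0.35 (0.19 to 0.52) in other collagen-gated cells, where it went from 75.2 to 96.2 CPM. The difference between these ratios was not tested. Of the 1703 UMIs of *Lor* in wildtype members 1398 (82.1%) were in 1 cell, and without the top cell of each library the levels were 51.0 and 35.3 CPM, a ratio of -0.53.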

How the results depend on the processing

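No paired analysis was possible because each genotype had 1 library. The share of members among collagen-gated cells went from 39.0% (wildtype) and 44.4% (*Eppk1*-/- cells) to 45.4% in the wildtype with a gate of 1%, to 28.2% and 15.2% with a gate of 5%, to 22.8% and 38.1% for high members alone, and to 33.8% in the wildtype without cells led by *Anxa3* alone. The counts of 471 higher and 405 lower genes became 923 and 691 with a UMI required in 10% of members and 1456 and 1233 with no such requirement. They were 390 and 465 with TMM scaling and 391 and 465 when centred on the median. They were 695 and 329 with a gate of 5%, 453 and 546 in high members and 320 and 295 with wildtype weights for the strata of *Pla1a* and *Efhd1* UMIs. The ratio of *Eppk1* was -3.85 with a gate of 5%, -3.56 with no cell filter, -1.96 without cells rich in markers of other cell types, -2.04 with the rule applied after thinning, -2.28 when each member weighed the same and -1.55 in high members. Of the 108 genes past 0.5 that were followed, most markers of other cell types not being among them, 10 changed sign. With a gate of 5% these were *Plac8* (0.13), *Pi16* (-0.081), *Col15a1* (0.18), *Cxcl1* (0.61), *Csf2* (0.90), *Bhlhe40* (0.32), *Cd44* (0.19) and *Foxp2* (0.024), and in high members *Krt77* (0.057) and *Prdm1* (0.37). The median of macrophage and dendritic cell markers turned to 0.10 without cells rich in markers of other cell types, skeletal muscle and adipogenic markers not counted. It turned to 0.12 with wildtype weights for the strata of *Pla1a* and *Efhd1* UMIs. The causes were not tested. The alternatives by *Pla1a* and *Efhd1* UMIs, by *Anxa3* alone and without a top cell were chosen after seeing the data. Of 186 genes followed through the alternatives 136 kept their sign in each, and of those past 0.5 in the values reported 78 stayed past it in each. Of 38 lists 22 kept the sign of their median, and of 12 past 0.5 only the adventitial markers and the skeletal muscle markers, which rested on few wildtype cells, 2 in all, stayed past it in each. The median of interferon-stimulated genes ranged from -0.99 to -0.03 and that of adventitial markers from 0.58 to 0.92.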
